A study of Mus musculus with 2 samples.

Results

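The genes that make, degrade and relay cyclic AMP and cyclic GMP were taken from total RNA-seq of mouse heart. Members were the protein-coding genes whose symbols name an adenylyl cyclase (Adcy), a phosphodiesterase (Pde), a catalytic (Prkac) or regulatory (Prkar) subunit of protein kinase A (PKA), or an A-kinase anchoring protein (Akap). The rule gave 57 of the 55536 mouse genes in the tables: 10 cyclases, 25 phosphodiesterases, 2 catalytic subunits, 4 regulatory subunits and 16 anchors. Whole heart was sequenced from 2 female B6CASTF1/J mice aged 36 days, a cross of the C57BL/6J and CAST/EiJ inbreds. They were untreated as far as the labels tell, and each gave 1 library from 300 ng of RNA with ERCC spike-ins. Replicate 1 (animal 3) held 39053339 and replicate 2 (animal 4) 38332179 expected counts, and the labels give both the same donor identifier but separate biosamples. They form 1 group, so the data give levels and the difference between 2 libraries, and no contrast of conditions.

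In this pathway a receptor acts through a G protein on a cyclase, which makes cyclic AMP from ATP, while phosphodiesterases break the nucleotide down. PKA is a tetramer in which regulatory subunits hold catalytic subunits inactive until they bind cyclic AMP, and anchors tether it near its targets. In heart muscle it carries the beta adrenergic signal to the calcium channels, the calcium pump regulator phospholamban and the contractile filaments. Cyclic GMP, made by natriuretic peptide receptors and the nitric oxide receptor, speeds or slows the breakdown of cyclic AMP through some of the same phosphodiesterases.

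What separates the kinase subunits can be seen in their coding sequence. Each regulatory subunit blocks the catalytic site with a short basic stretch. In type II subunits this stretch holds a serine that the kinase phosphorylates, and in type I subunits another residue stands in its place. The 48 coding bases around this position are shown from the reference transcripts, of mm10, with the codon of that residue in capitals:
Prkar1a-201, chr11:109660092-109660139, plus strand, exon 3: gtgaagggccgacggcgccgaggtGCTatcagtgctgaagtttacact
Prkar1b-210, chr5:139108514-139108561, minus strand, exon 2: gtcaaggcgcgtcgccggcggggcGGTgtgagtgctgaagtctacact
Prkar2a-201, chr9:108714281-108716882, plus strand, exons 2 and 3: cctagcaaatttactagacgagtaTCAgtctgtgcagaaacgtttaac
Prkar2b-201, chr12:31993764-32038649, minus strand, exons 2 and 3: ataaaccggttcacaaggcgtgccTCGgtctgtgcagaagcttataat
The codons of Prkar2a and Prkar2b read serine, that of Prkar1a alanine and that of Prkar1b glycine.

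Transcripts of the same catalytic gene differ at their start. The first 90 coding bases (mm10) are shown for 2 transcripts of each gene, with the bases before the part shared with the other transcript of the same gene in capitals:
Prkaca-201, chr8:83973187-83980817, plus strand, exons 1 and 2: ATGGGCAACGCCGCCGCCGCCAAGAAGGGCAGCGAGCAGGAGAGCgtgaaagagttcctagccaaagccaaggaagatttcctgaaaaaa
Prkaca-202, chr8:83977073-83981177, plus strand, exons 1 to 3: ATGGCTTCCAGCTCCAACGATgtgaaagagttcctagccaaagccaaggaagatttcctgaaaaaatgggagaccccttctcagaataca
Prkacb-202, chr3:146757725-146812683, minus strand, exons 1 and 2: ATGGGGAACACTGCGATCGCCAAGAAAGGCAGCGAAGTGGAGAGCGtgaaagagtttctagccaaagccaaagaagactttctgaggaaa
Prkacb-201, chr3:146781244-146781333, minus strand, exon 1: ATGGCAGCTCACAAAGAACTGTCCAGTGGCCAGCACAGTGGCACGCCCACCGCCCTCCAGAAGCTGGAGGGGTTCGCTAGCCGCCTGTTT
Prkaca-201 begins with 45 bases of its own and Prkaca-202, the start known from sperm, with 21. The whole coding sequences of Prkaca-201 and Prkacb-202 are 1053 bases each and match at 845 positions (80.2%), with no identical run longer than 34 bases.

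TPM is an abundance scaled for length and library size, and genes that reached 1 TPM in both libraries count as detected. By this rule 38 of the 57 genes were detected: 6 cyclases, 16 phosphodiesterases, both catalytic subunits, 3 regulatory subunits and 11 anchors. Levels below are TPM in replicate 1 and replicate 2, and means are given with the SD over n = 2. In such bulk samples, fewer cells of a type and less RNA per cell cannot be told apart.

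**Figure D1:**
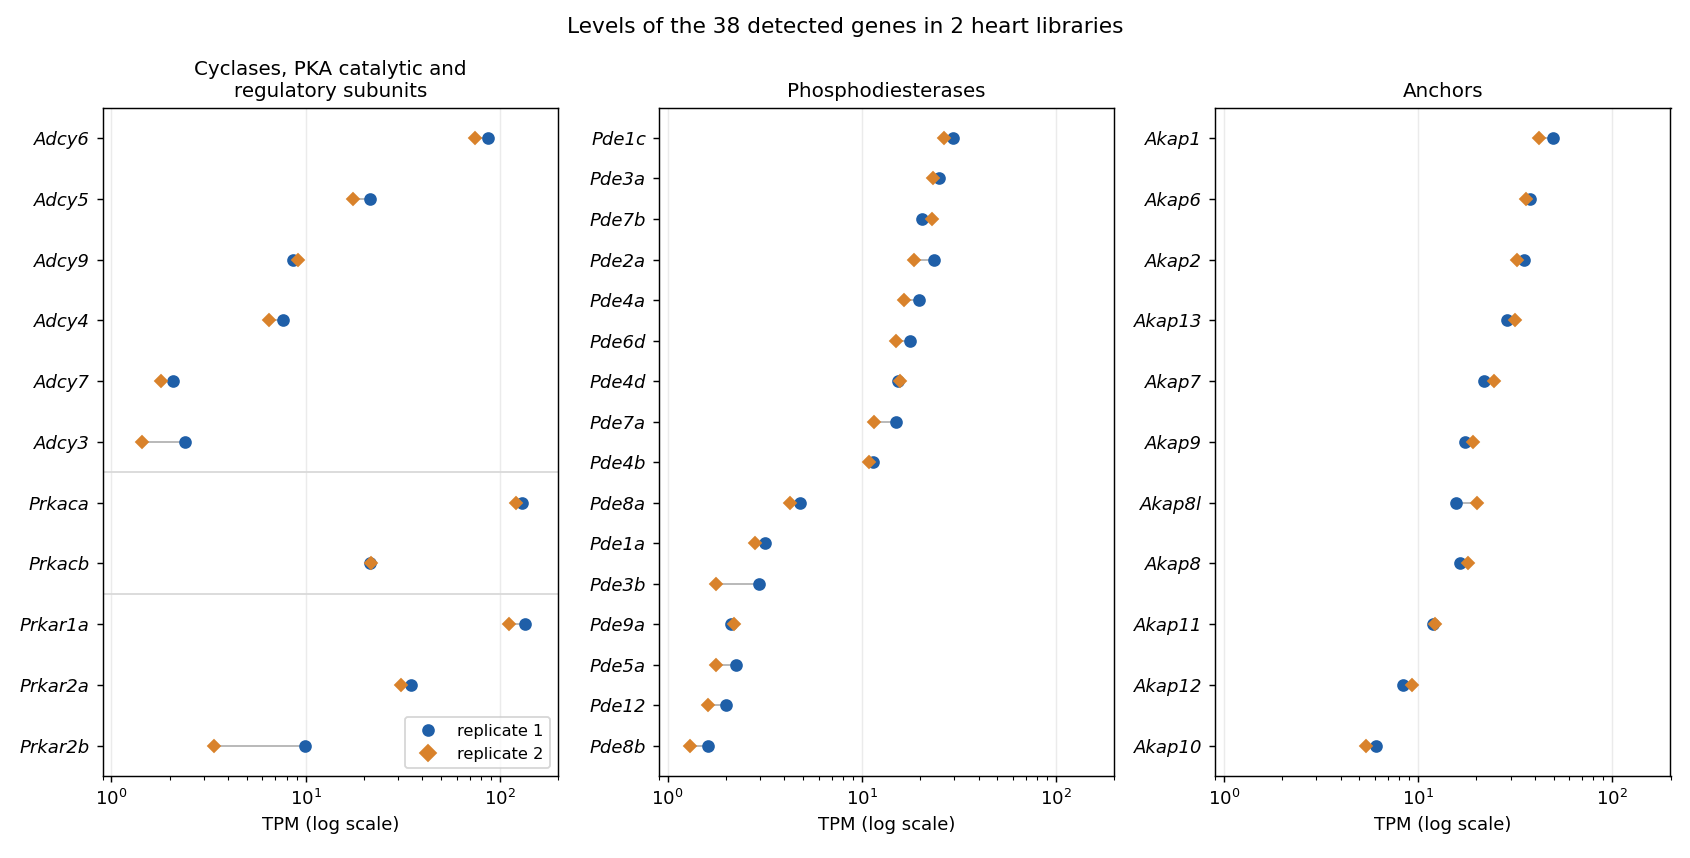
TPM on a log axis of the 38 detected genes in replicate 1 (circles) and replicate 2 (diamonds), by family and ordered by mean. Prkaca and Prkar1a lie above 100 TPM in both libraries, and the widest gap between the libraries is that of Prkar2b, at 9.96 and 3.36 TPM.

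Most cyclase RNA came from a pair of related genes. Adcy6 (ENSMUSG00000022994.9, chromosome 15, 98589973 to 98610076), a calcium-inhibited cyclase of heart muscle, stood at 87.1 and 74.4 TPM. It made 66.6% ± 0.187 of the TPM of all 10 cyclases. Its closest relative Adcy5 (ENSMUSG00000022840.9, chromosome 16, 35154877 to 35305738), also calcium-inhibited, stood at 21.4 and 17.55 TPM. The pair took 82.7% ± 0.717 of the family, with 4.06 times as much Adcy6 as Adcy5 in replicate 1 and 4.24 times in replicate 2. The order of these 2 cyclases was thus the same in each library, with a gap far wider than the spread between them. The fold gap was smaller by expected counts, which are not divided by length. Adcy6 had 9893 and 8731 counts and Adcy5 4618 and 3618.

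The other detected cyclases were lower. Adcy9, a cyclase that forskolin activates poorly, stood at 8.64 and 9.19 TPM, and Adcy4 at 7.62 and 6.48, and their ranges did not overlap. Adcy7 (2.07 and 1.80) and Adcy3 (2.40 and 1.43), the calcium-stimulated cyclase known from olfactory neurons, overlapped each other. Exons of Cenpo on the opposite strand cover 22.1% of the exonic bases of Adcy3. Under the threshold lay the calcium-stimulated neuronal cyclases Adcy1 (0.650 and 0.580) and Adcy8 (0.35 and 0.260), with Adcy2 (0.0800 and 0.120). The soluble, bicarbonate-stimulated Adcy10 was at 0.0900 and 0.0600 TPM, from 10 and 1 counts.

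Upstream of the cyclases, the list of 7 G protein alpha subunits had 5 detected. It was led by Gnas, the stimulatory subunit, at 505 and 442 TPM, and ended at its olfactory relative Gnal at 0.05 and 0.0300. Among the beta adrenergic receptors Adrb1, the main receptor of heart muscle, was highest at 10.9 and 9.88 TPM. All 5 receptor kinases and arrestins were detected, from Grk2 (20.2 and 18.1) to Grk3 (2.18 and 1.80).

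No single phosphodiesterase led its family in the way that Adcy6 led the cyclases. Pde1c, a calmodulin-stimulated enzyme that hydrolyses both nucleotides, was highest at 29.6 and 26.6 TPM and made 14.8% ± 0.0197 of the family. Pde3a, which cyclic GMP inhibits and which is the target of the heart failure drug milrinone, followed at 25.01 and 23.2. By expected counts, which are not divided by length, Pde3a led instead, with 6811 and 6215 counts against 4228 and 3595 for Pde1c. Next were the cyclic AMP-specific Pde7b (20.55 and 23.04) and the cyclic GMP-stimulated Pde2a (23.6 and 18.7). The range of Pde2a overlapped those of Pde3a and Pde7b, so its place among them was not settled at these levels. In the second quantification Pde7b (23.7 and 27.2 TPM) lay above Pde3a (23.2 and 21.8), and Pde2a (17.7 and 12.2) lay below both. Their order thus depends on the method.

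The rolipram-sensitive subfamily Pde4, cyclic AMP-specific and the main group studied at the beta adrenergic receptor, had 3 of 4 genes detected. Pde4a stood at 19.8 and 16.5 TPM, Pde4d at 15.4 and 15.7, and Pde4b at 11.4 and 10.9. The ranges of these 3 genes did not overlap at these levels. In the second quantification the range of Pde4d lay within that of Pde4a, and Pde4b stayed below both. The order of Pde4a and Pde4d thus depends on the method. Pde4c reached 1.19 and 0.720. The other cyclic AMP-specific genes were Pde7a (14.96 and 11.6), Pde8a (4.81 and 4.28) and Pde8b (1.61 and 1.30).

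Genes for enzymes that act on cyclic GMP alone were sparse. Pde5a, the target of sildenafil, stood at 2.25 and 1.77 TPM and Pde9a at 2.12 and 2.21, and their ranges overlapped. Among enzymes of both nucleotides Pde1a (3.17 and 2.82) and Pde3b (2.95 and 1.77) were low, and Pde10a (0.830 and 1.27), Pde1b (0.740 and 0.440) and Pde11a (0.0700 and 0.150) were not detected. By class, cyclic AMP-specific genes made 45.8% ± 1.33 of the phosphodiesterase TPM and genes for both nucleotides 42.3% ± 0.935. Cyclic GMP-specific genes made 2.21% ± 0.0314.

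**Figure D2:**
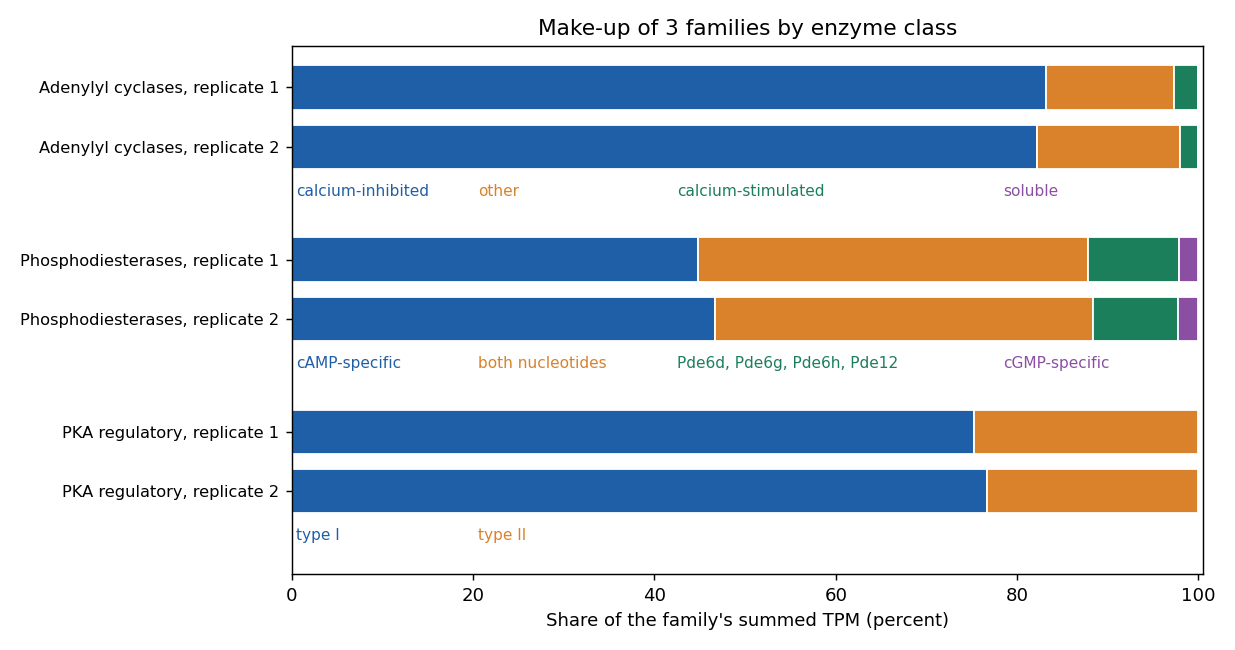
Share of each family's summed TPM (percent) by enzyme class, with a bar for each library. The calcium-inhibited cyclases take 83.2% and 82.2% of their family, cyclic AMP-specific phosphodiesterases 44.9% and 46.7%, and type I regulatory subunits 75.3% and 76.7%.

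The remaining 9.71% ± 0.426 came from 4 genes that carry the family's name without being catalytic cyclic nucleotide phosphodiesterases. Nearly all of it was Pde6d (17.8 and 15.03 TPM), a carrier of lipid-modified proteins first found with the photoreceptor enzyme. Pde12, a mitochondrial enzyme that degrades RNA, stood at 2.00 and 1.61, and 6.82% of its exonic bases are overlapped on the opposite strand by Arf4 at 28.6 and 28.1 TPM. The photoreceptor inhibitors Pde6g (0.0900 and 0.270) and Pde6h (0.110 and 0.0100) were near 0. So were the photoreceptor catalytic genes: Pde6b and Pde6c had no count and Pde6a had 0 and 3. In the second quantification Pde6a was at 0.596 and 0.837 TPM, nearly all from the transcript Pde6a-202, so its level depends on the method. None of 5 photoreceptor markers was detected, with summed levels of 0.27 and 0.2 TPM.

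On the cyclic GMP side, 5 of 11 guanylyl cyclase genes were detected. Npr2, the receptor of C-type natriuretic peptide, was highest at 15.25 and 16.8 TPM, and Gucy2c and Gucy2f had no count. The cyclic GMP kinase Prkg1 stood at 4.07 and 4.82 and Prkg2 at 0.0800 in both. The 2 nucleotide exporters were Abcc5 at 10.2 and 11.6 and Abcc4 at 3.20 and 3.24.

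Of the kinase itself, Prkaca (ENSMUSG00000005469.10, chromosome 8, 83972993 to 83996443), the alpha catalytic subunit, stood at 130.45 and 120.98 TPM and was the highest gene of all 57 by its mean (126 ± 6.70). Prkacb, the beta subunit, stood at 21.5 and 21.85. The ratio of Prkaca to Prkacb was 6.07 in replicate 1 and 5.54 in replicate 2, and Prkaca made 85.3% ± 0.812 of the 2. The pseudogene Prkaca-ps1 had 0 and 1 counts.

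Among regulatory subunits Prkar1a (ENSMUSG00000020612.16, chromosome 11, 109649405 to 109669656), the ubiquitous type I alpha subunit, stood at 135 and 111 TPM. Its range included that of Prkaca, so the 2 highest genes could not be ranked. Their order also depends on the method. In the second quantification Prkaca was higher, at 155 and 144 TPM against 137 and 116. By expected counts Prkar1a was higher, with 13164 and 10731 against 8905 and 8008. Prkar2a, type II alpha, stood at 34.75 and 30.99 TPM and Prkar2b, type II beta, known as the main form of fat and brain, at 9.96 and 3.36. Prkar1b, a neuronal form, was at 0.870 and 1.60 TPM. Type I genes made 75.97% ± 0.991 and type II genes, those with the serine codon shown above, 24.03% ± 0.991 of the regulatory TPM.

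In summed TPM of the first quantification, the ratio of regulatory to catalytic subunits was 1.19 in replicate 1 and 1.03 in replicate 2. On that scale the catalytic sum was 1.16 and 1.28 times the sum over cyclases. Both ratios depend on the method. By expected counts Prkar1a exceeded Prkaca, as above, and Prkar2a (4467 and 3875) exceeded Prkacb (2149 and 2087). Adcy6 (9893 and 8731) and Adcy5 (4618 and 3618) likewise had more counts than Prkaca and Prkacb. These are levels of RNA and not of protein. Of the 3 small PKA inhibitor genes 2 were detected. Pkig stood at 81.8 and 79.8 TPM and Pkia, the form known from heart and muscle, at 81.7 and 69.4, while Pkib was at 0.470 and 0.110.

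No single anchor led its family either. Akap1 (ENSMUSG00000018428.15, chromosome 11, 88830792 to 88864586), which tethers PKA to the outer mitochondrial membrane, was highest at 49.9 and 42.2 TPM and made 18.3% ± 2.22 of the 16 genes. Akap6 (ENSMUSG00000061603.8, chromosome 12, 52699383 to 53155599), the anchor of the myocyte nuclear envelope, followed at 37.8 and 35.9. By expected counts Akap6 led, with 11624 and 10840 counts against 5497 and 4491 for Akap1. Akap2 stood at 35.3 and 32.2 TPM, but 84.4% of its exonic bases lie on the same strand within exons of Pakap (13.5 and 12.1 TPM). Reads could thus be divided between the 2 genes in more than 1 way. In the second quantification the ranges of Akap6 (40.0 and 39.0 TPM), Akap2 (42.2 and 38.6) and Akap13 (36.4 and 41.3) overlapped. The order of these anchors below Akap1 thus depends on the method.

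Akap13, an anchor that also activates the small GTPase RhoA, stood at 28.9 and 31.8 TPM. Akap7, which binds the L-type calcium channel and phospholamban complexes, was at 21.8 and 24.7. Akap9, the anchor of the Golgi, the centrosome and the potassium channel Kcnq1, was at 17.4 and 19.2. The ranges of Akap9, of the nuclear anchor Akap8 (16.5 and 18.2) and of its relative Akap8l (15.75 and 20.1) overlapped. In the second quantification Akap8 was at 28.9 and 32.9 TPM, above Akap9 (17.5 and 17.9) and Akap8l (16.9 and 20.2). The place of Akap8 thus depends on the method.

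Lower anchors were Akap11 (11.98 and 12.3 TPM), Akap12 (8.40 and 9.36), a scaffold of the beta adrenergic receptor, and Akap10 (6.09 and 5.41). Akap17b (1.05 and 0.860) and Akap5 (0.570 and 0.800), a membrane anchor, did not pass the threshold in both libraries. Akap3, Akap4 and Akap14, anchors of the sperm tail, had no count, as did all 4 sperm markers. A gene without a count could still hold up to 3 counts, and this limit covers counting error only.

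Of 15 anchors with other names 12 were detected. They were led, above every Akap gene, by Pde4dip (myomegalin), which binds PKA and phosphodiesterases at the sarcomere and Golgi, at 699 and 704 TPM. Sphkap, an anchor of type I PKA, was lowest at 0.300 and 0.130. Of 15 other cyclic nucleotide effectors 7 were detected. Popdc2, a cyclic AMP-binding membrane protein of heart, led them at 168 and 159 TPM, the exchange factor Rapgef3 (Epac) stood at 8.92 and 9.15, and Cnga1 and Cnga2 had no count. All 11 PKA substrates of the myocyte were detected, from cardiac troponin I, Tnni3 (3972 and 3846), to Ppp1r1a (3.53 and 3.37), with phospholamban, Pln, at 2297 and 2354.

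Transcripts were examined for the 29 genes with a mean of at least 5 TPM. The 2 quantifications named the same leading transcript for 22 of them and different ones for 7. In 27 genes the leader of the first quantification was the same in both libraries. Prkaca-201 held 99.6% ± 0.198 of Prkaca in the first quantification and 89.5% ± 1.83 in the second. Prkaca-202, with the start known from sperm shown above, held 0.580% and 0.300% in the first, and it stood at 18.2 and 13.2 TPM in the second, while the sperm markers were at 0 in both libraries. Prkacb was led by Prkacb-202 in both, at 64.4% ± 1.46 and 46.7% ± 4.95.

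**Figure D3:**
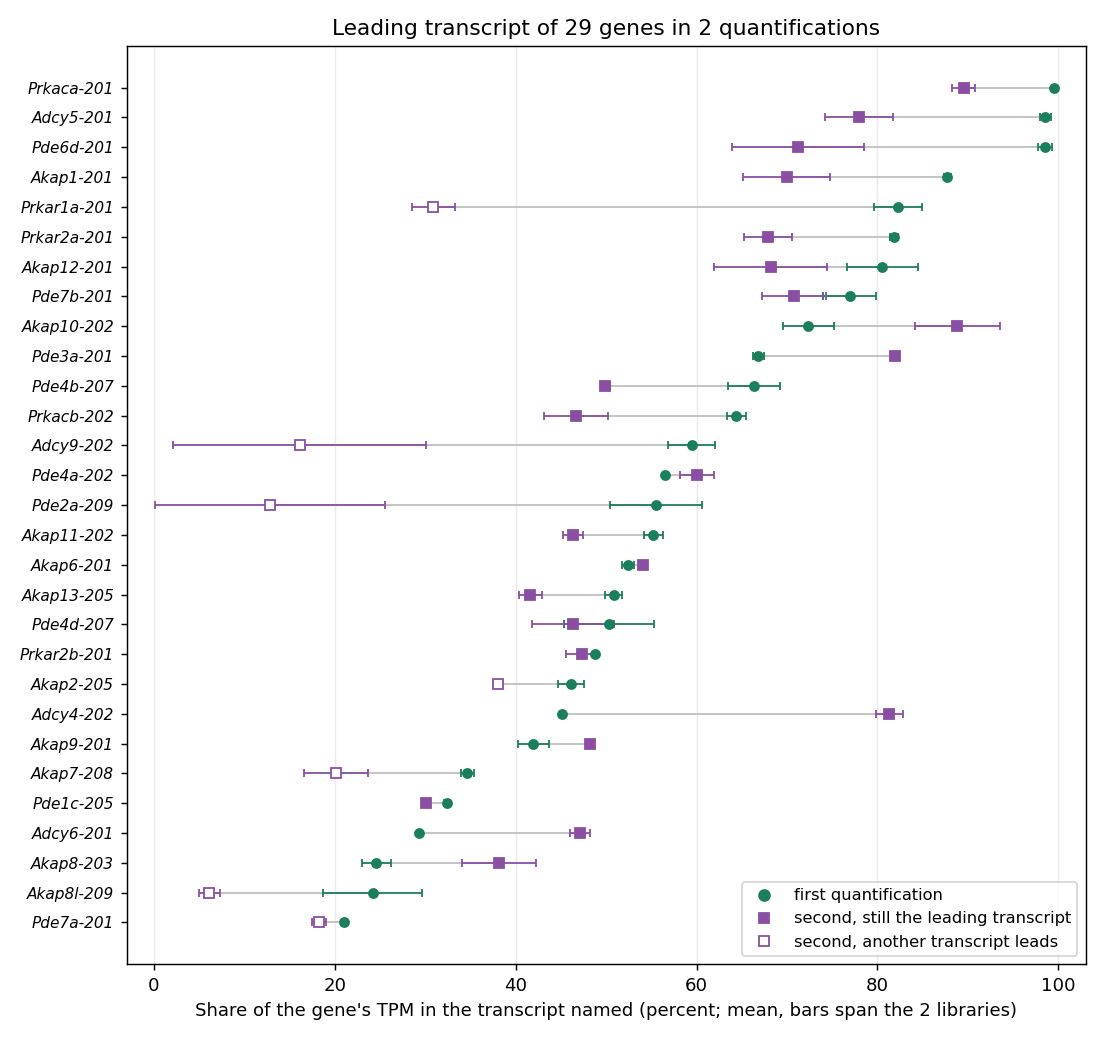
Share of each gene's TPM (percent) held by the transcript that led in the first quantification (circles) and the share of that transcript in the second (squares), as the mean of 2 libraries with bars that span them. Open squares mark the 7 genes with another leader in the second, among them Prkar1a-201 at 82.2% and 30.9%.

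For Prkar1a the leaders differed in where transcription starts and in their number of exons (11 in Prkar1a-201 and 12 in Prkar1a-203). Prkar1a-201 held 82.2% ± 3.74 in the first quantification and Prkar1a-203 67.4% ± 3.74 in the second, and their coding sequences of 1143 bases are identical. Prkar2b-201 and Prkar2b-202, at 48.8% ± 0.290 and 46.1% ± 6.94 in the first quantification, likewise share a coding sequence of 1248 bases. Akap6 was divided between 2 coding transcripts in both quantifications. The one that codes for 2306 residues held 52.5% ± 0.962 and 54.1% ± 0.275, and the other codes for 1223. Pde4d was led by the short Pde4d-207 of 583 residues (50.3% ± 7.04 and 46.4% ± 6.42), while Pde4a-202 and Pde4b-207, the leaders of their genes, code for 843 and 720.

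Some of the level came from transcripts not annotated as protein-coding. In the first quantification their share was over 20% in 11 of the 29 genes. It was highest in Pde2a (72.7% ± 7.73) and Akap8 (50.4% ± 5.78), which had 28.1% ± 33.9 and 34.8% ± 6.17 in the second. Pde7a had 45.4% ± 0.842 in the first and 64.2% ± 3.16 in the second. In Pde2a the leader was Pde2a-209, annotated for nonsense-mediated decay, at 55.5% ± 7.17. The second quantification gave it 12.8% ± 18.0 and was led by the coding Pde2a-204 (57.3% ± 27.5), so the coding level of Pde2a is not fixed by these data. The same-strand gene model Gm45837, with no count in the first quantification, covers 64.3% of the exonic bases of Pde2a. In Pde3a a retained-intron transcript held 33.2% ± 0.820 and 18.1% ± 0.0729. Adcy5 has a single coding transcript, which held 98.5% ± 0.834 in the first quantification and 77.99% ± 5.32 in the second. In Adcy6 transcripts not annotated as protein-coding held 30.3% ± 3.71 in the first and 11.9% ± 0.938 in the second. The short Adcy6-204, whose coding sequence is annotated without its end, held 21.1% ± 4.84 in the first quantification and 0 in the second.

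Promoters were searched for the cyclic AMP response element, since this is where the pathway's own transcription factor Creb1 binds. The full element is TGACGTCA and its half-site TGACG, each read on both strands, and a full element also counts as a half-site. RefSeq promoter windows of 300 bases (250 before and 50 after a start, GRCm38.p6) matched 46 of the 57 genes. The full element was in 1 gene, Prkar1a (2.17%, against 2.03% of 27025 genes with a window). A half-site was in 16 genes (34.8%, against 23.05%), and by window in 18 of 88 (20.5%, against 20.8% of 32851). By window the members were thus close to all genes, and they had more windows per gene. The site of Prkar1a is shown with the full element in capitals:
Prkar1a, chr11:109650889-109650918, plus strand: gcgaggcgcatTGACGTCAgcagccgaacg
The element ends 14 bases before the annotated start of Prkar1a-201 and lies 1495 bases after that of Prkar1a-203. Of the genes that cyclic AMP is known to induce, 10 of 15 had a window, and all 10 held a half-site (23.05% of all genes). The list was picked for known responses to cyclic AMP, so this count is no test. No binding was measured.

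The 2 libraries were then compared on rounded expected counts, with an exact two-sided binomial test against TMM-scaled library sizes and Benjamini-Hochberg adjustment over the 13745 genes whose counts summed to 50 or more. The test sets 2 libraries side by side, not 2 conditions, and it allows for counting error only. Ratios are of replicate 2 over replicate 1 on the log2 scale. With an adjusted p below 0.05 and a ratio of 2-fold or more, 1 of 46 tested members was called, where 210 of all genes were (1.53%). At 1.5-fold 3 of 46 were called, against 3.54% of all genes, and at any fold 23 of 46, against 21.9%. The last rule reaches small differences in genes with many counts.

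**Figure D4:**
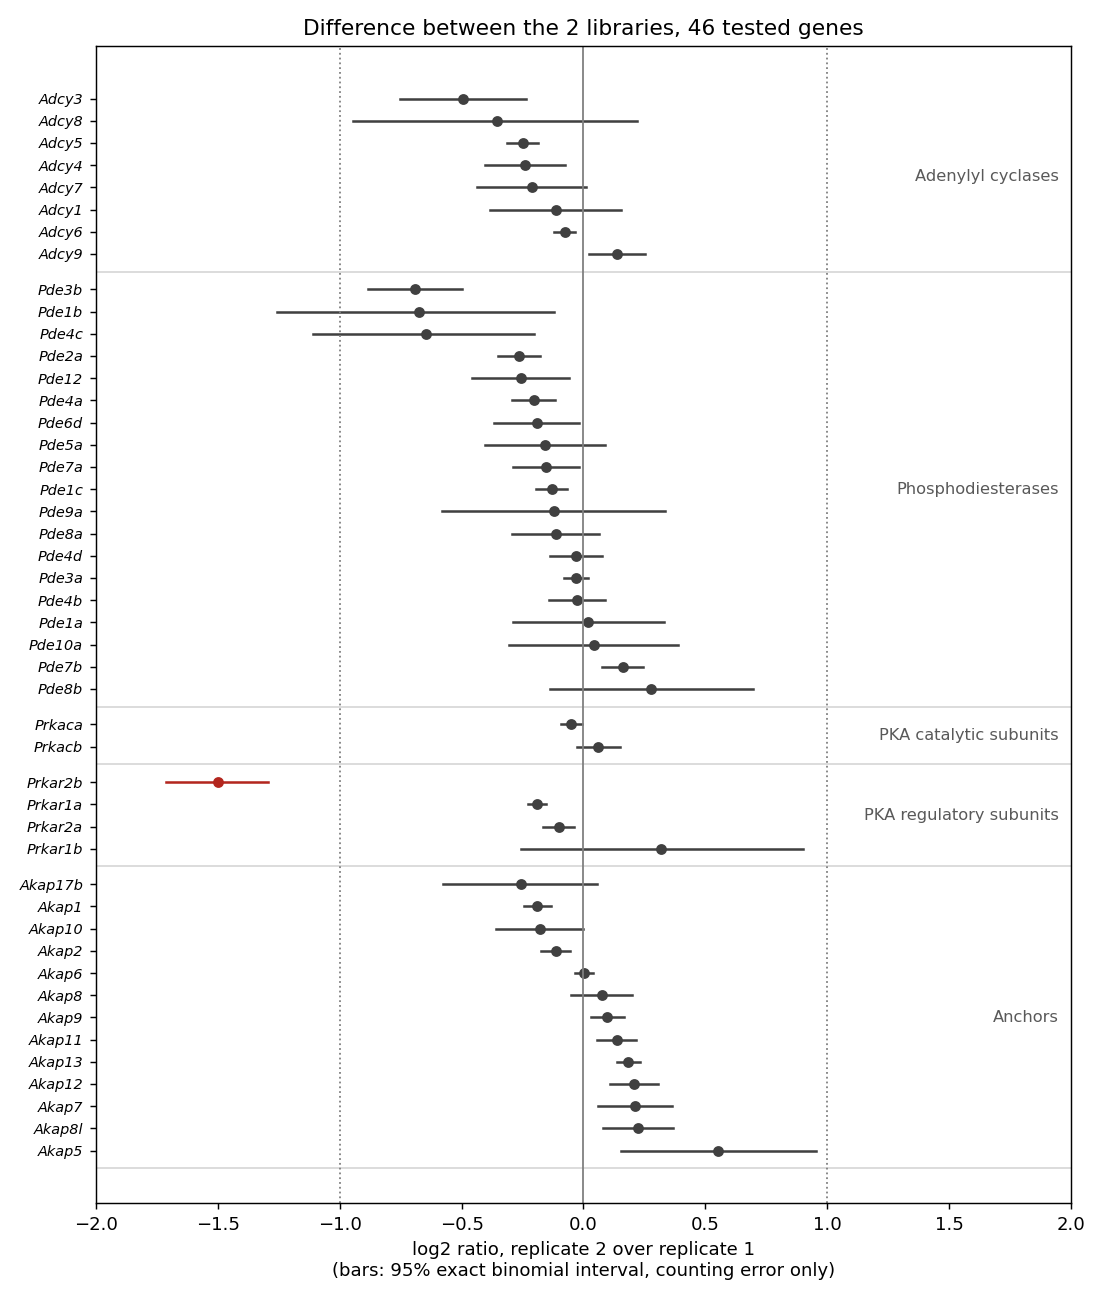
Log2 ratio of replicate 2 over replicate 1 for the 46 tested genes, with exact 95% binomial intervals that cover counting error only and dotted lines at a 2-fold ratio. Prkar2b (red), at -1.50, is the called gene, and 9 of 13 anchors lie above 0 where 15 of 19 phosphodiesterases lie below.

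The called gene was Prkar2b (ENSMUSG00000002997.15, chromosome 12, 31958476 to 32061296). Its expected counts were 757 in replicate 1 and 249 in replicate 2, so that it was 2.83-fold lower in the second library. The log2 ratio was -1.50 (95% counting interval -1.71 to -1.29, adjusted p = 1.68e-50 in the exact binomial test), and -1.51 in the second quantification. With edgeR's exact test, which adds a common dispersion estimated from the same 2 libraries, the adjusted p was 1.64e-06. The other type II gene, Prkar2a, had a ratio of -0.10, and the ratio of Prkar2a to Prkar2b went from 3.49 to 9.22.

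The other 2 genes called at 1.5-fold were lower in replicate 2 as well. Pde3b, the form of Pde3 known from fat cells and liver, had 596 and 344 counts and a ratio of -0.69 (adjusted p = 1.98e-11 in the exact binomial test), while its heart relative Pde3a was at -0.03. The ratio of Pde3a to Pde3b went from 8.48 to 13.1. Pde4c had 113 and 67 counts and a ratio of -0.65 (adjusted p = 0.0199 in the exact binomial test). With edgeR's exact test Pde3b had an adjusted p of 0.321 and Pde4c of 1, so neither passed. Pde1b, with 74 and 43 counts, had a ratio of -0.67 but was not called (adjusted p = 0.0667 in the exact binomial test). In the second quantification its ratio was -0.69 and its adjusted p 0.0437.

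Fat cell markers moved with these genes. All 5 adipocyte markers were below 0, and their summed level was 149 TPM in replicate 1 and 60.9 in replicate 2. Ucp1 (-2.67), Plin1 (-1.79) and Adipoq (-1.33) were called, Cidea was at -0.88 and Cfd at -0.25. Adrb3, the beta adrenergic receptor known from fat, was called at -2.10, with 2.27 and 0.370 TPM, while Adrb1 was at -0.06. The part of fat cells in the ratios of Prkar2b and Pde3b was not tested.

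Markers of red blood cells were lower too, all 5 being called, with ratios from -1.94 to -1.52. The 5 cardiomyocyte markers ranged from -0.03 to 0.17, the 5 endothelial ones from -0.23 to 0.16, and none of them was called. The part of red blood cells in the members' ratios was not tested. Of the anchors with other names, Sphkap was called at -1.01 (-0.90 in the second quantification, under 2-fold), though not with edgeR's exact test (adjusted p = 0.542).

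**Figure D5:**
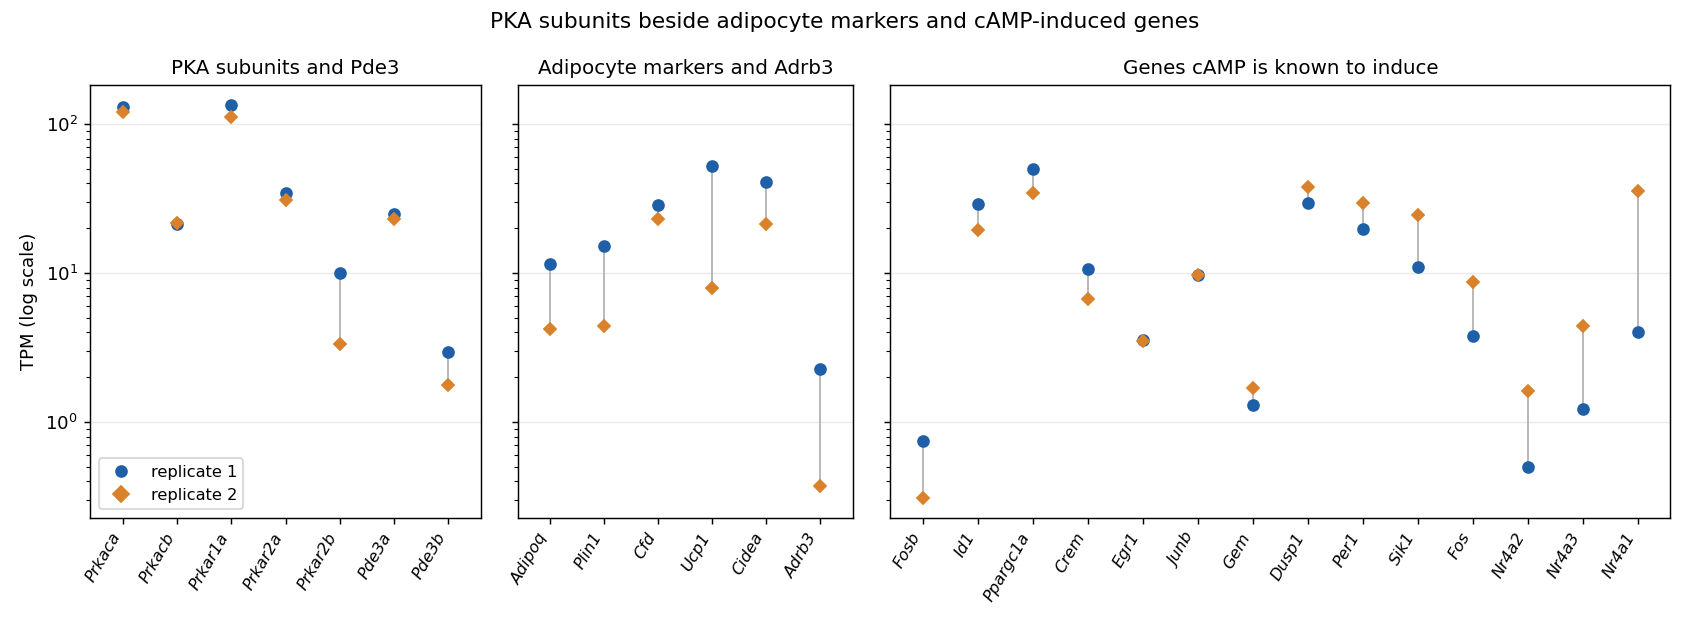
TPM on a log axis in replicate 1 (circles) and replicate 2 (diamonds) for PKA subunits with the Pde3 genes, for adipocyte markers with Adrb3, and for the 14 tested genes that cyclic AMP is known to induce. Prkar2b, Adrb3 and the adipocyte markers are lower in replicate 2, and Nr4a1 stands at 4.01 and 35.5 TPM.

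Over all tested members, called ones included, the median ratio was -0.11. Of these 46 members 30 were below 0 (65.2%), against a median of 0.0005 and 49.9% for all tested genes. Of 8 cyclases 7 were below 0, with Adcy3 at -0.49, Adcy5 at -0.25 and Adcy6 at -0.08. Of 19 phosphodiesterases 15 were below 0, with Pde7b (0.16) on the other side. Of 13 anchors 9 were above 0, led by Akap5 (0.55), Akap8l (0.22) and Akap7 (0.21), while Akap1 was at -0.19.

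Whether these small ratios lie above or below 0 depends on the scale. Of the 23 members called at any fold 15 were lower and 8 higher in replicate 2. The calls at any fold were made anew on each other scale. With the total count as the scale 23 called members were lower and 2 higher, and with spike-in counts 2 were lower and 22 higher. On each scale tried the members' median lay below that of all genes. The spike-in scale moved the median of all genes to 0.24 and that of the members to 0.13. On that scale Prkar2b was at -1.26 and still called at 2-fold, while Pde3b at -0.45 and Pde4c at -0.40 were no longer past 1.5-fold.

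Of 14 tested genes that cyclic AMP is known to induce, 5 were called at 2-fold higher and 1 lower in replicate 2, where 1.53% of all genes were called in either direction. Their median ratio was 0.47. The list was not tested against the members. The nuclear receptors Nr4a1 (3.51), Nr4a3 (1.94) and Nr4a2 (1.63), the transcription factor Fos (1.36) and the kinase Sik1 (1.15) were higher. Fosb was lower (-1.19), though not with edgeR's exact test (adjusted p = 0.0915), and the Creb coactivator target Ppargc1a, the highest of the list by its mean at 49.7 and 34.7 TPM, was at -0.49. In replicate 2 Dusp1 (37.7) and Nr4a1 lay above it. Areg, the lowest, had no count. Many of these genes respond to other stimuli too. Of the 8 genes of the Creb family and its coactivators, from Ep300 (17.3 and 19.8 TPM) to Crtc1 (3.92 and 3.54), none was called, and Creb1 was at -0.23. Apart from this list, the beta receptors and the anchors with other names, none of the other 9 pathway lists held a called gene.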

How the data were processed

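Levels came from the authors' deposited gene and transcript tables of each library, made on mm10 with annotation M21 per the deposited description files. No source used here names the programs. The deposited expected counts are estimated reads per gene and are not normalized, and the deposited TPM values are scaled for effective length and library. The deposited transcript table also gives each transcript's percent of its gene. The deposited bounds of the TPM interval were treated as a signal of unstated level and not used in the text. A second deposited transcript table, whose columns are those kallisto writes, gave estimated counts and TPM, which were summed here per gene. Reads of the CAST allele were quantified on a C57BL/6J reference, and the effect was not tested.

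Levels are means with the SD over n = 2. Expected counts were rounded and compared by exact two-sided binomial tests (scipy 1.17.1) against TMM sizes (edgeR 4.0.16), with 0.5 added for log2 ratios and Benjamini-Hochberg adjustment over genes whose counts summed to 50 or more. The quasi-likelihood test has no residual degrees of freedom here. Where nothing shows that libraries came from separate animals beyond their labels, p-values measure only their spread in reads. The test was tried on made counts with known changes. Family classes, pathway lists and markers came from general knowledge. Members and lists were chosen with earlier results of these data known. Named were all members, the highest, lowest and called genes of each list, and a few fixed genes, and other genes named beside them were chosen after their values were seen. A few genes of these lists are not reported here. Coding sequences came from the GENCODE M21 transcripts and promoters from RefSeq. DESeq2 1.42.0 size factors were an alternative scale.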

Additional observations from a re-analysis of the deposited data

How the results depend on the processing

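The number of detected genes was 38, and it was 44 at a TPM of at least 0.5, 41 in the second quantification and 40 in either library alone. The number called between the libraries was 1, Prkar2b, under DESeq2 size factors, total counts, spike-in counts, no filter beyond a summed count of 1, edgeR's exact test and the second quantification. It was 3 at 1.5-fold and 23 with no fold threshold. At an unadjusted p under 0.05, edgeR's exact test held 2 of the 46 tested members and 583 of all 13745 tested genes. Family shares moved by more than 1 SD as follows. By expected counts Prkaca held 79.9%, Prkar1a 71.7%, Adcy6 57.5%, Akap1 12.9% and Pde1c 16.6%, and in the second quantification Prkaca held 82.5%, Prkar1a 70.8%, Adcy6 64.04% and Pde1c 14.5%. By posterior mean TPM Prkar1a held 74.6%, Adcy6 66.02% and Pde1c 14.4%. Leaving out a library gave 84.7% to 85.9% for Prkaca, 74.8% to 75.6% for Prkar1a, 66.5% to 66.8% for Adcy6, 16.7% to 19.8% for Akap1 and 14.77% to 14.80% for Pde1c. The leader changed only by expected counts, to Akap6 and Pde3a, and counts are not divided by length. Of 46 member ratios all kept direction and side of the threshold with 1 added to each count. In the second quantification 42 did, 2 newly passed the threshold, and 2 near 0 changed sign, Akap6 to -0.0021 and Pde10a to -0.21, and the cause was not tested. No paired analysis was possible because the libraries form 1 group. Depth limits genes with few counts, and 2 libraries cannot give the spread between animals.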
